A study of Schizosaccharomyces pombe with 2 samples.

Results

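Glycerol and dihydroxyacetone metabolism of the fission yeast Schizosaccharomyces pombe is represented here by 6 genes, out of 2896 that could be named on the array. They are dak1 and dak2, which encode dihydroxyacetone kinases, gld1 for glycerol dehydrogenase, gut2 for the mitochondrial glycerol 3-phosphate dehydrogenase, and gpd1 and gpd2 for the cytosolic NAD-linked glycerol 3-phosphate dehydrogenases. They were chosen by gene symbol among probe sets with a signal above 0, and all 6 members were found, each with 1 probe set. The set was put together knowing that the dak2 signal was low in one of the strains, so the value of dak2 is given as a description. The array also carries probe sets for budding yeast, and the 5 rows named DAK1, DAK2, GPD1, GPD2 and GUT2 after that species were listed at 0 in both arrays and were left out.

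Polyadenylated RNA came from the strain ST3479, called SD5, in which subtelomeres had been deleted, and from the wild-type strain JP1225 (WT). Both are of mating type h- and were growing exponentially in YES, a rich medium based on yeast extract, at 32 °C. There was 1 array for each strain, so no value has a replicate error, no test was made, and a strain cannot be separated from its culture or its array. The sources used here do not give which subtelomeres SD5 lacks. The signals could not check the mating type label: the 6 listed genes of h- cells had 72.0 to 2965 in SD5 and 60.8 to 3260 in WT, the 3 listed genes of h+ cells had 70.2 to 193 in SD5 and 70.9 to 200.3 in WT, all above background, and levels of different probe sets cannot be compared.

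In fission yeast, glycerol is broken down through dihydroxyacetone. Gld1 oxidises glycerol to dihydroxyacetone, and Dak1 and Dak2 phosphorylate it to dihydroxyacetone phosphate, a triose phosphate of glycolysis. In the opposite direction Gpd1 and Gpd2 reduce dihydroxyacetone phosphate to glycerol 3-phosphate, which is dephosphorylated to glycerol or built into lipids, and Gut2 returns glycerol 3-phosphate to dihydroxyacetone phosphate while passing electrons to ubiquinone. Glycerol is the main osmoprotectant of this yeast, gpd1 is a known target of the stress MAP kinase Sty1 and its transcription factor Atf1, and gld1 is known to be repressed by glucose.

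One dihydroxyacetone kinase gene, dak2, had no signal above background in SD5, while the other, dak1, and the remaining 4 genes had close levels in both strains. The dak2 bound was at least 10.8-fold lower in SD5, and the other 5 members lay between 1.01-fold and 1.07-fold lower. Signals are linear intensities as deposited, and the background of an array is the 95th percentile of 79 control and reporter probe sets with no S. pombe target, 26.6 in SD5 and 17.7 in WT. The median over the 4999 S. pombe probe sets was 998 in SD5 and 1168 in WT, and the log2 ratio of SD5 over WT was centred by removing its median of -0.20. Ratios below are after this centring, and a gene is counted as lower or higher at 2-fold. Of the 6 members 1 was 2-fold lower and 0 were 2-fold higher. Among the 2865 named genes with a ratio, 7 (0.244%) were 2-fold lower and 1 (0.0349%) was 2-fold higher, and since dak2 was chosen for its low value nothing is read from the count of members. A further 2085 S. pombe probe sets were not matched to a named gene and are outside these shares.

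**Figure D1:**
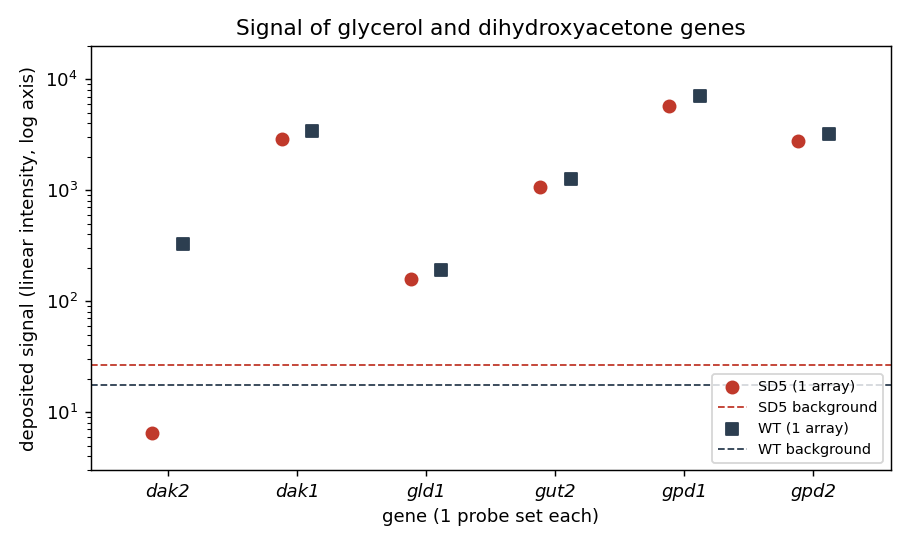
Deposited signal of the 6 genes on a log axis, with 1 point for the SD5 array (circle, left) and 1 for the WT array (square, right) of each gene and dashed lines at each array's background. Only the SD5 point of dak2, at 6.46, lies below its background of 26.6.

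The gene of the second dihydroxyacetone kinase, dak2 (SPOM_SPAC977.16C), had a signal of 6.46 in SD5 and 330 in WT. The SD5 signal was 0.243 times the background of its array and the WT signal 18.7 times that of its own. With the SD5 signal set to background the log2 ratio was -3.43, which is a bound, and the SD5 level was then at most 9.27% of the WT level. The size of the bound follows the background chosen. With the 75th percentile of the same control probe sets dak2 was at least 24.0-fold lower. With a stricter floor, the 10th percentile of all probe sets of this species, at 179 in SD5 and 224 in WT, it was at least 1.60-fold lower and no longer passed 2-fold.

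Its paralog dak1 (SPOM_SPAC22A12.11) had a signal of 2915 in SD5 and 3412 in WT. These are 110 and 193 times the background of the arrays, and the log2 ratio was -0.02. The difference between the ratios of dak2 and dak1 was a bound of -3.41 on the log2 scale, at least 10.6-fold in the direction of a lower dak2. The dak2 probe set gave its 6.46 on the array where the dak1 probe set gave 2915. A probe set reports its own brightness, so the levels of the 2 kinases within a strain cannot be compared from these values. The ratio of dak1 lay inside the spread of genes of its brightness: the 100 genes nearest to it in mean signal had log2 ratios from -0.10 to 0.07 between their 10th and 90th percentiles. That is a spread between genes within this pair of arrays, not a replicate error.

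The gene of the enzyme that supplies dihydroxyacetone, gld1 (SPOM_SPAC13F5.03C), had the dimmest WT signal of the members. It had 158 in SD5 and 192 in WT, 5.94 and 10.9 times the background of the arrays. The log2 ratio was -0.08, where the 100 genes of nearest brightness spread from -0.27 to 0.28. At this brightness a difference of the size seen here is not separable from the scatter of other genes, and quantile normalization turned the ratio to 0.09. Under the stricter floor gld1 was below background in both strains and gave no ratio.

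Of the 2 genes that make glycerol 3-phosphate, gpd1 had the lowest ratio among the members apart from dak2. The gene gpd1 (SPOM_SPBC215.05) had a signal of 5696 in SD5 and 7047 in WT, with a log2 ratio of -0.10, or 1.07-fold lower. Its brightness class was narrow: the 100 nearest genes had a median of 0.05 and spread from -0.03 to 0.11, and 3 of them lay below gpd1. A loess fit, which removes the trend of the ratio with brightness, put gpd1 at -0.15. Over all named genes measured in both arrays, 68.6% had a ratio no further from 0 than gpd1. The second gene, gpd2 (SPOM_SPAC23D3.04C), had 2764 in SD5 and 3228 in WT, with a log2 ratio of -0.02 inside the spread of -0.07 to 0.07 at its brightness. The ratios of gpd1 and gpd2 differed by -0.08, and with 1 array per strain this difference has no replicate check. The symbol gpd1 is also a synonym of tdh1, a glyceraldehyde 3-phosphate dehydrogenase gene, which had no named probe set.

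The gene of the mitochondrial enzyme, gut2 (SPOM_SPCC1223.03C), had a signal of 1074 in SD5 and 1268 in WT. The log2 ratio was -0.04, inside the spread of -0.13 to 0.15 among the 100 genes of nearest brightness. All 5 members other than dak2 had ratios below 0, except that gld1 lay above 0 after quantile normalization, with a median of -0.04, beside a median of 0.00 for all named genes. The span they cover, -0.10 to -0.02, held 24.6% of the named genes with a ratio. None of the 5 was 1.5-fold lower or higher, and neither were most genes: 0.524% of named genes were 1.5-fold lower and 0.279% 1.5-fold higher.

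**Figure D2:**
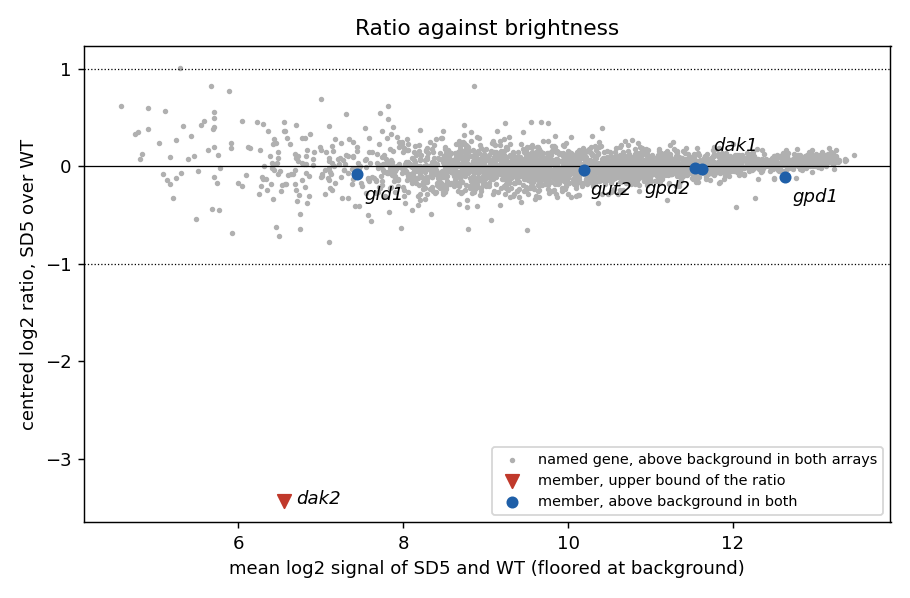
Centred log2 ratio of SD5 over WT against mean log2 signal for named genes above background in both arrays (grey), with 5 members (blue) and the bound of dak2 (red triangle, at -3.43). Dotted lines mark 2-fold, and gpd1 lies at the lower edge of the bright genes at -0.10.

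The members differ in where they lie. In the reference assembly ASM294v3, dak2 is the 24th protein-coding gene from the left end of chromosome I, and the others are far inside. On chromosome I, dak1 is 479th and gld1 910th from the left end, and gpd2 is 508th from the right end. On chromosome II, gpd1 is 193rd from the right end, and on chromosome III gut2 is 226th from the right end. The sources used here do not name the build behind the array, so only gene order was used.

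Among the outermost 34 protein-coding genes of that end, which run to 10 genes inside dak2, 6 had a named probe set. The only one outside dak2 was nhe1, 5 genes away, the gene of a plasma membrane sodium/proton antiporter. It had 17.3 in SD5 and 2611 in WT, below background in SD5 like dak2. The next named gene on the inner side was ght3, of the hexose transporter family, with 3 unnamed genes between it and dak2. It had 46.7 in SD5 and 58.0 in WT (log2 ratio -0.11) and was above background in both. Further in, str3, of the siderophore transporter family, had 52.1 in SD5 and 29.7 in WT (1.02). It is the only named gene counted as 2-fold higher, just past the threshold. Its deposited signals differ by less than 2-fold, so it would not be counted without centring. The gene isp3, for a spore wall protein, had 34.4 in SD5 and 26.1 in WT (0.61), and pfl8, of the flocculin family, had 189 in SD5 and 242 in WT (-0.15). The named genes below background in SD5 thus reached inward to dak2, and those from ght3 on were measured, with signals of ght3, str3 and isp3 close to background. The gene directly inside dak2, SPOM_SPAC977.17, had no named probe set, so its level was not analysed here.

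**Figure D3:**
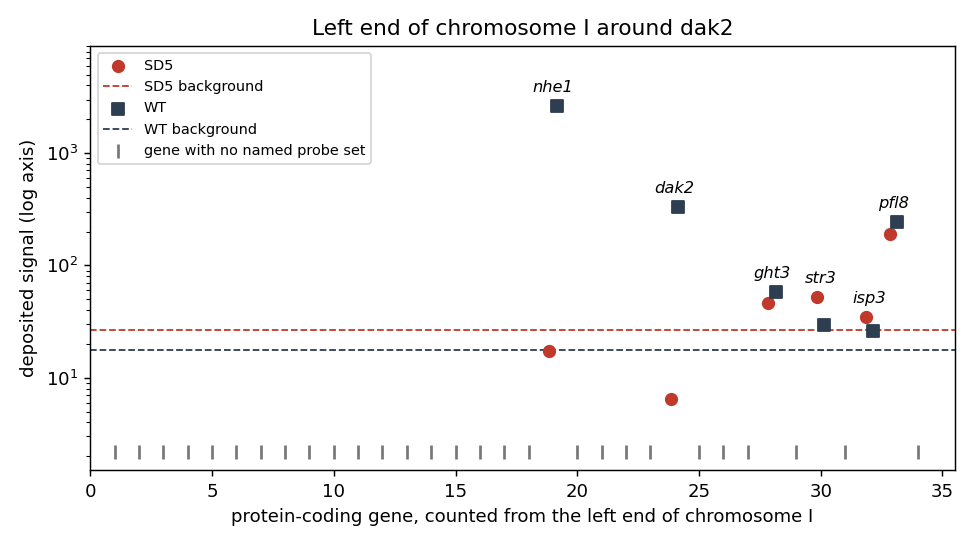
Deposited signal on a log axis against gene order from the left end of chromosome I, for SD5 (circles) and WT (squares), with dashed lines at each array's background and ticks for genes with no named probe set. The SD5 signals of nhe1 and dak2 lie below background, and those of ght3, str3, isp3 and pfl8 lie above it.

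The chromosomal neighbours of the other 5 members were measured in both strains. The 2 nearest named genes on each side of each of these members, 20 genes up to 6 genes away, were above background in all 20 cases on both arrays, with log2 ratios from -0.33 to 0.18. The lowest was nmt1, a thiamine-repressed gene next to gut2, with 30.8 in SD5 and 44.5 in WT, close to background in SD5. Beside dak1, bip1, the gene of the endoplasmic reticulum Hsp70 chaperone, had the highest ratio (0.18), with 4965 in SD5 and 5051 in WT. The 4 neighbours of gpd1 lay between 0.02 and 0.13, above gpd1 itself.

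The 3 named genes whose signals were most like those of dak2 over the 2 arrays were say1, gal10 and gal7, out of 2864 compared. Likeness was the distance over the log2 signals of both arrays with a floor at background, so it uses 2 values. All 3 were at the floor in SD5, as dak2 was, so their order rests on the WT signal alone. The nearest, say1, had 0.335 in SD5 and 362 in WT, at least 11.8-fold lower. The UDP-glucose 4-epimerase gene gal10 had 1.49 in SD5 and 212 in WT, at least 6.94-fold lower, and the uridylyltransferase gene gal7 had 19.3 in SD5 and 536 in WT, at least 17.5-fold lower. All 3 lie near the right end of chromosome II, as the 21st, 13th and 15th protein-coding genes from it.

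The triose phosphate that dihydroxyacetone kinase makes enters glycolysis, and the glycolytic genes had close levels in both strains except one near a chromosome end. Of 12 listed genes 10 had a probe set, 6 with ratios above 0 and 4 below, with a median log2 ratio of 0.04. Those below 0 include fbp1 (-0.32), for the gluconeogenic enzyme fructose-1,6-bisphosphatase, which is also in the glucose repression list below. The aldolase gene fba1 had a ratio of 0.08, and the triose phosphate isomerase gene tpi1 had 7464 in SD5 and 8112 in WT (0.08). The highest was pyk1, for pyruvate kinase, at 0.15. The sign of the median depended on scaling, at -0.03 after loess and after quantile normalization and -0.01 with centring on hybridisation controls. None was 2-fold lower or higher, and 1 was 1.5-fold lower, the enolase gene eno102, with 538 in SD5 and 974 in WT (-0.65). It is the 19th gene from the left end of chromosome II, and its paralog eno101, 883rd from its nearer end, had 8622 in SD5 and 9185 in WT (0.11). Unlike dak2, eno102 was above background in SD5. The control probe sets of gpd3, a glyceraldehyde 3-phosphate dehydrogenase gene, had ratios from -0.02 to 0.11 in all 4 cases.

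Genes of glucose repression and cAMP signalling, a list that holds regulators and also glucose-repressed genes such as inv1 and fbp1, included more low than high ratios. All 19 listed genes besides gld1 had a ratio, 6 above 0 and 13 below, with a median of -0.08 against 0.00 for all named genes, and none reached 1.5-fold. The lowest were inv1, the invertase gene, with 43.4 in SD5 and 68.2 in WT (-0.45), and fbp1, for fructose-1,6-bisphosphatase, with 134 in SD5 and 193 in WT (-0.32). The SD5 signal of inv1 was close to background. Of the regulators, scr1, the gene of a glucose repressor, had a ratio of -0.21, and rst2, the gene of an activator of glucose-repressed genes, one of -0.11. The highest was hsp90 (0.14), which genetic screens of this pathway also named git10.

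Genes of the Sty1 and Atf1 stress pathway, to which gpd1 responds, lay on both sides of 0. Of 18 listed genes 17 had a ratio, 9 above 0 and 8 below, with a median of 0.00, and none reached 1.5-fold. The MAP kinase gene sty1 had 2049 in SD5 and 2358 in WT (0.00), its activator wis1 a ratio of 0.10, and atf1 one of 0.05. The lowest was the phosphatase gene pyp2 (-0.26), and the highest was mpr1, the gene of a phosphorelay protein, with 227 in SD5 and 203 in WT (0.36). The stress-induced catalase gene ctt1 had a ratio of -0.13 and the heat shock gene hsp9 one of 0.09. The transcription factor gene atf21, with 14.3 in SD5 and 19.0 in WT, gave no ratio because SD5 was below background and the WT signal lay under the SD5 background of 26.6, so the bound ran in the opposite direction.

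Around gut2, the other genes whose products pass electrons to ubiquinone had a median of 0.03, or -0.02 with centring on hybridisation controls. Of 9 listed, 5 had a ratio, 4 above 0 and 1 below, from the succinate dehydrogenase gene sdh1 at -0.01 to the dihydroorotate dehydrogenase gene ura3 at 0.11. Among listed genes of glycerolipid metabolism, 5 of 9 had a ratio, 1 above 0 and 4 below, with a median of -0.04. The lowest was ned1, for the fission yeast lipin, with 358 in SD5 and 493 in WT (-0.26), and the highest was the acyltransferase gene slc1 (0.05). The trehalose genes, for another protective sugar, lay between ntp1 (-0.06) and tpp1 (0.05), with tps1 also at 0.05. Over all these lists 58 genes had a ratio, 28 above 0 and 30 below, with a median of -0.01, and 0 were 2-fold lower or higher.

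**Figure D4:**
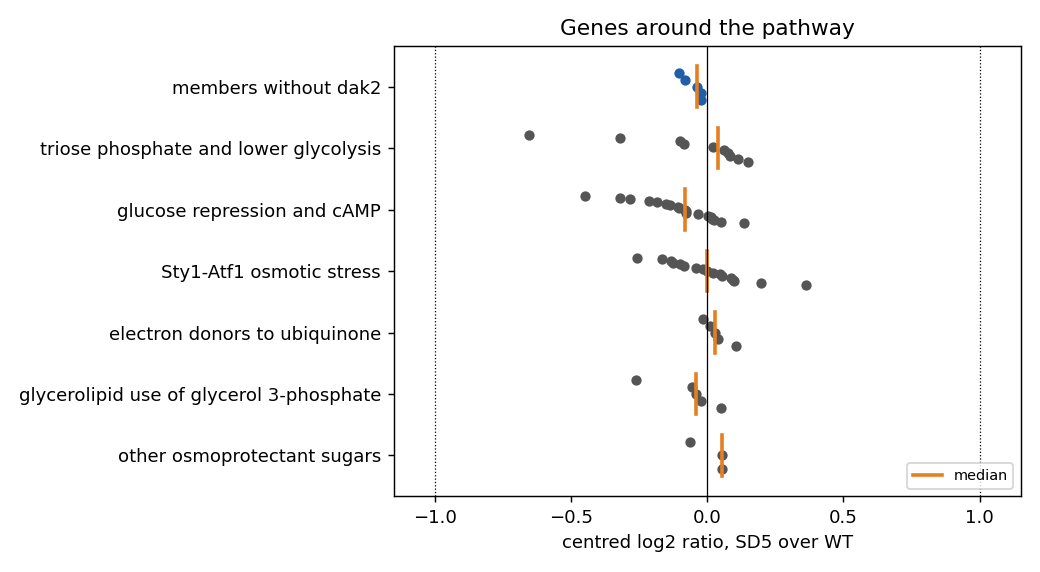
Centred log2 ratio of SD5 over WT for each gene with a ratio (points) and the median (orange) of the 5 members other than dak2 and of 6 lists of genes around the pathway. Dotted lines mark 2-fold, which no gene shown passes, and the point at -0.65 is eno102.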

How the data were processed

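Per the labels' protocols, poly(A) RNA was selected with oligo dT, and 5 ng of it entered the GeneChip 3′ IVT Express procedure written for 250 ng of total RNA, with transcription for 4 hours at 40 °C. The submitters' processing notes name GCOS 1.4. The deposited table gives each probe set an intensity on a linear scale for each array. The sources used here do not give its summary, scaling or mask.

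Of 10928 rows, 5748 were 0 in both arrays and were left out. Genes were named by matching the platform table's gene identifiers to RefSeq, assembly ASM294v3. Among the platform table's 5538 probes, 20 had several symbols and the other 5518 did not. Before taking log2, any signal under the background was raised to it. A gene below background in 1 array gave a bound, below in both no ratio, and a bound in the opposite direction none either. Genes with several probe sets took the mean ratio. Depth here is signal over background, and 1 array per strain limits precision. The calculation was tested on simulated data.

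The members and lists were chosen with earlier results of these data known. Named were the members, the lowest, highest and 1.5-fold changed genes of each list, 2 named neighbours on each side, named genes from the left end of chromosome I to 10 genes inside dak2, and the 3 genes most like dak2; other list genes were named after their values were seen. From the lists, 7 symbols belonging to other genes or listed double were dropped, and 3 mating genes were moved to the right mating type; neither used values. Other background, centring, normalization, floor, probe set and fold settings were tried. Python 3.11.15 with numpy 2.4.6, pandas 2.3.3 and statsmodels 0.14.6 was used.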

Additional observations from a re-analysis of the deposited data

How the results depend on the processing

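The call on dak2 changed in 1 of the 8 other settings of background, scaling and probe sets. With the floor raised to the 10th percentile of all probe sets of this species the log2 bound of dak2 was -0.68, its difference from dak1 was -0.66, 0 members were 2-fold lower and 0 were 2-fold lower or higher, because the raised floor lies close to the WT signal; gld1 gave no ratio there. With the 75th percentile of control probe sets the bound was -4.58 and the difference -4.56. In the other settings the log2 ratio of dak2 lay between -3.63 and -3.20. It was a bound in all of them but the one where background was added to both signals in place of a floor. At 1.5-fold in place of 2-fold dak2 was still the 1 member counted. Without centring every ratio carries the shift of all genes (median of named genes -0.20): dak1 was at -0.23, gld1 at -0.28, gut2 at -0.24, gpd1 at -0.31 and gpd2 at -0.22, and the medians were -0.16 for glycolysis, -0.20 for the Sty1 and Atf1 list, -0.28 for glucose repression, -0.17 for electron donors, -0.24 for glycerolipids and -0.15 for trehalose genes. The ratio of gpd1 was -0.16 with centring on hybridisation controls and -0.15 after loess. The sign of gld1 turned after quantile normalization (0.09). The other values moved by less than the spread of genes of like brightness, or of all named genes for lists. No paired analysis was possible because each strain has 1 array. Depth, meaning signal over background, limits dak2 to a bound and leaves gld1, the dimmest measured member, the widest spread. Why dak2 was below background in SD5 was not tested.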
